A study of Mus musculus with 4 samples.

Results

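The proteins of the BCL-2 family control the integrity of the outer mitochondrial membrane and with it cell survival, and the m6A marks on the mRNAs of 10 of its genes were examined in mouse natural killer (NK) cells. The genes were the anti-apoptotic members Bcl2, Bcl2l1 (the gene of BCL-XL), Mcl1 and Bcl2a1b (a gene of A1), the effectors Bax and Bak1, and the BH3-only genes Bcl2l11 (BIM), Bad, Bid and Pmaip1 (NOXA). The peaks of these genes were taken as the distinct rows that the authors had assigned to the Ensembl identifier of each gene, which gave 20 peaks of 20727 in the whole list. Of the 10 genes, 6 held these peaks, and Bak1, Bid, Bcl2a1b and Pmaip1 were assigned none.

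N6-methyladenosine (m6A) was mapped by MeRIP-seq, in which fragmented poly(A) RNA is enriched with an antibody against the mark and sequenced next to the fragments it was enriched from. The 4 libraries came from splenic NK cells of C57BL/6 mice, as 2 m6A immunoprecipitates (IP) and 2 inputs without antibody, and the labels gave no genotype, age or treatment and did not say whether libraries of a kind came from different mice. Per the methods of the study, the cells had been expanded in the animals with an IL-15 plasmid and then sorted, so every library came from mice given that plasmid. The list named no library and carried 1 fold enrichment (IP over input) and 1 log10 p-value for each peak, with no value per library, so no error between replicates could be given and nothing below was tested between groups.

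Anti-apoptotic family members bind and restrain BAX and BAK, the effectors that permeabilize the outer mitochondrial membrane and release cytochrome c. BH3-only proteins are the sensors of stress and of lost survival signals, and they engage the anti-apoptotic members or the effectors directly. In NK cells IL-15 is a known survival signal, with MCL-1 and BCL-2 as pro-survival members and BIM as an opponent. The m6A mark is written co-transcriptionally in the motif DRACH (where D stands for any base but C, R for a purine and H for any base but G), is often found in long exons and around stop codons, and can be read by proteins that change the stability or translation of an mRNA.

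Of the 20 peaks, 18 held at least 1 DRACH site and 9 held the form GGAC followed by A, C or T, with 20 distinct sites in all. These shares were close to those of the whole list. Among peaks that touched the longest coding transcript of their gene, 87.5% held a DRACH site, against 90% over the list. GGAC before any base was held by 56.2% of them, against 54.5%. The windows below are read 5′ to 3′ on the sense strand of the GENCODE M21 transcripts (GRCm38). Each is 21 nt long with the motif in capitals, and they are shown because they are the GGAC-type sites nearest the centre of each peak that had any, at most 2 for a peak. In the GGAC-type sites the middle A is the base that could carry the mark, but the peaks do not resolve single bases.
Bcl2, coding sequence, peak 3 (chr1:106712680-106712700, minus strand): gtgcaccgGGACAtggctgcc
Bcl2, 5′ UTR, peak 3 (chr1:106712913-106712933, minus strand): gggagtcgGGACTtgaagtgc
Bcl2, 3′ UTR of Bcl2-202, peak 4 (chr1:106711542-106711562, minus strand): tgctgaatGGACTtgcatcta
Mcl1, coding sequence, peak 2 (chr3:95659373-95659393, plus strand): ggctccaaGGACTcgaagcct
Mcl1, coding sequence, peak 2 (chr3:95659046-95659066, plus strand): ggcgccgaGGACCccgacgtc
Mcl1, coding sequence, peak 3 (chr3:95659973-95659993, plus strand): acgaaacgGGACTggcttgtc
Mcl1, coding sequence, peak 3 (chr3:95660728-95660748, plus strand): cacgtacaGGACCtagaaggc
Mcl1, 3′ UTR, peak 4 (chr3:95663086-95663106, plus strand): aagggttaGGACCaactgcaa
Bax, 5′ UTR of Bax-203, peak 1 (chr7:45466529-45466549, minus strand): ctgggatgGGACAgaaggcca
Bax, 5′ UTR of Bax-203, peaks 1 and 2 (chr7:45466302-45466322, minus strand): tctccctgGGACCcaggagtc
Bad, coding sequence, peak 1 (chr19:6950848-6950868, plus strand): gtgcgatgGGACCtgaaccct
Bad, 3′ UTR of Bad-208, peak 1 (chr19:6950950-6950970, plus strand): gcatgctgGGACTtgcagttc
Bad, 3′ UTR, peak 3 (chr19:6951776-6951796, plus strand): cctgttctGGACTgccctcgg
Bad, 3′ UTR, peak 3 (chr19:6951836-6951856, plus strand): ataactggGGACCcgaggtcg
Peaks are numbered 5′ to 3′ along each gene. The GGAC-type sites lay in peaks of Bcl2, Mcl1, Bax and Bad, and no peak of Bcl2l1 or Bcl2l11 had one.

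The 6 genes with a peak made up 60% of the 10, against 46.3% of 21951 protein-coding genes in the annotation. Peaks enriched at least 5-fold are called strong here, and 2 genes had one, Bcl2 and Bax. They were 33.3% of the 6 genes with a peak, against 43.4% of all protein-coding genes with a peak. Strong peaks numbered 4 of 20 (20%), against 34.6% of all peaks. The median fold enrichment of the 20 peaks was 2.14 (quartiles 1.64 and 3.62), and that of all peaks was 2.66 (quartiles 1.73 and 9.48). Peaks under 2-fold numbered 9 of 20 (45%), against 36.1% of the whole list. A peak p-value under 0.001 was found for 15 of 20 peaks (75%), against 61.5% of all peaks. Most peaks of the listed genes were thus of low fold enrichment, with p-values under 0.001 no rarer than in the list. The highest peaks of the listed genes were in Bcl2 (125-fold) and Bax (19-fold). The other strong peaks, both in Bcl2, were at 9.75 and 5.06.

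**Figure D1:**
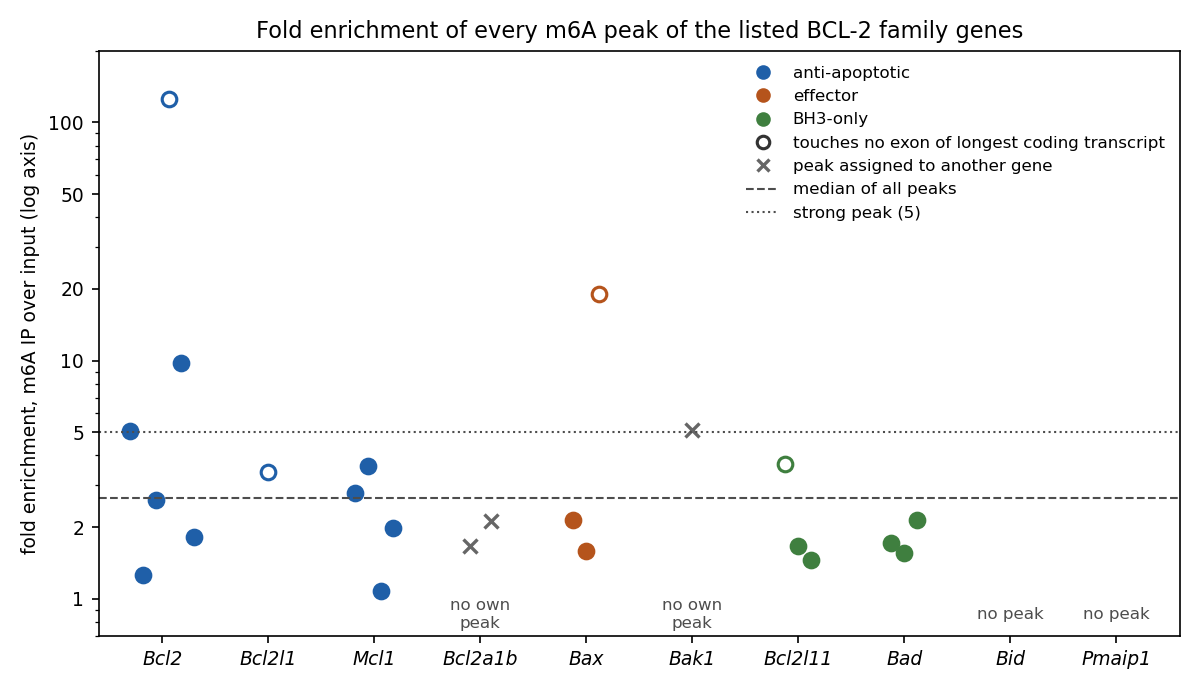
Fold enrichment (IP over input, log axis) of every peak of the 10 listed genes, with 1 point for each peak and the genes ordered by role. Filled points touch the longest coding transcript, open points do not, crosses are peaks assigned to another gene that cover exons of Bcl2a1b or Bak1, the dashed line is the median of all peaks (2.66) and the dotted line is 5. The top points of Bcl2 (125), Bax (19) and Bcl2l11 (3.68) and the only point of Bcl2l1 (3.41) are open.

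Most genes with a peak carried several. At least 3 peaks were found in 5 of the 6 genes, against 19.7% of protein-coding genes with a peak, and at least 4 in 2 genes, against 7.9%. Bax reached 3 with a peak 2 that lies inside its peak 1, and merging overlapping peaks left 19 of the 20. Bcl2 alone had 6 peaks, a number reached by 1.12% of protein-coding genes with a peak. By role, the anti-apoptotic genes held 11 peaks in 3 of 4 genes, with a median fold enrichment of 2.79 and a range from 1.08 to 125. The effectors held 3 peaks, all in Bax, with a median of 2.14 and a range from 1.58 to 19. The BH3-only genes held 6 peaks in 2 of 4 genes, with a median of 1.69 and a range from 1.46 to 3.68, and none of them was strong. Peaks of 1 gene share its RNA and are not replicates, so these medians describe the peaks of this list.

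Bcl2, the founding anti-apoptotic member of the family, had the widest range of fold enrichment of the 10 genes, and the gene (ENSMUSG00000057329, minus strand, chr1:106538178-106714274) has a pair of coding isoforms. Bcl2-201 has 2 exons joined across an intron of 168906 nt and encodes 236 amino acids. Bcl2-202 is a single exon of 2841 nt that starts inside the first exon of Bcl2-201, runs on for 1966 nt into its intron 1 and encodes 199 amino acids. The peak of highest fold enrichment of all 20, peak 4 (chr1:106710534-106711880), had a fold enrichment of 125 (log10 p = -38.4). It lay wholly in intron 1 of Bcl2-201, from 425 to 1771 nt past the exon, and covered 1347 nt of the 3′ UTR of Bcl2-202, which is 69.4% of that UTR. Of all peaks 98.6% had a lower fold enrichment, and among peaks that the authors labelled 3′ UTR 99.5% were lower. The strongest enrichment in the family thus fell on sequence that the short isoform keeps as its 3′ UTR and the long isoform removes by splicing. Reads from the intron of unspliced Bcl2-201 RNA would lie on the same bases as reads of Bcl2-202, and the list cannot tell them apart.

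The other Bcl2 peaks sat on exons of Bcl2-201. Peak 5 (chr1:106541439-106541769), in the long 3′ UTR and centred 1660 nt beyond the stop, had a fold enrichment of 9.75 and the most significant p-value of the gene (log10 p = -47.7). Peak 1 (chr1:106714214-106714274) covered the first 61 nt of the transcript with a fold enrichment of 5.06 (log10 p = -2.59), and 31.7% of all peaks were less significant. Peak 3 (chr1:106712209-106713017) had a fold enrichment of 2.6 (log10 p = -22.9). It covered 576 nt of the 711 nt coding sequence of Bcl2-201, and its last 96 nt ran past the end of exon 1 into sequence that belongs to Bcl2-202 alone. The remaining peaks were weak. Peak 6 (chr1:106538178-106538836), at the 3′ end of the transcript, had a fold enrichment of 1.82 (log10 p = -7.41), and peak 2 (chr1:106713137-106713197), in the 5′ UTR, had 1.26 (log10 p = -2.48). The gap between peaks 3 and 4 was 328 nt, and in Bcl2-202 the former peak ran over the stop codon while the latter began 401 nt past it.

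**Figure D2:**
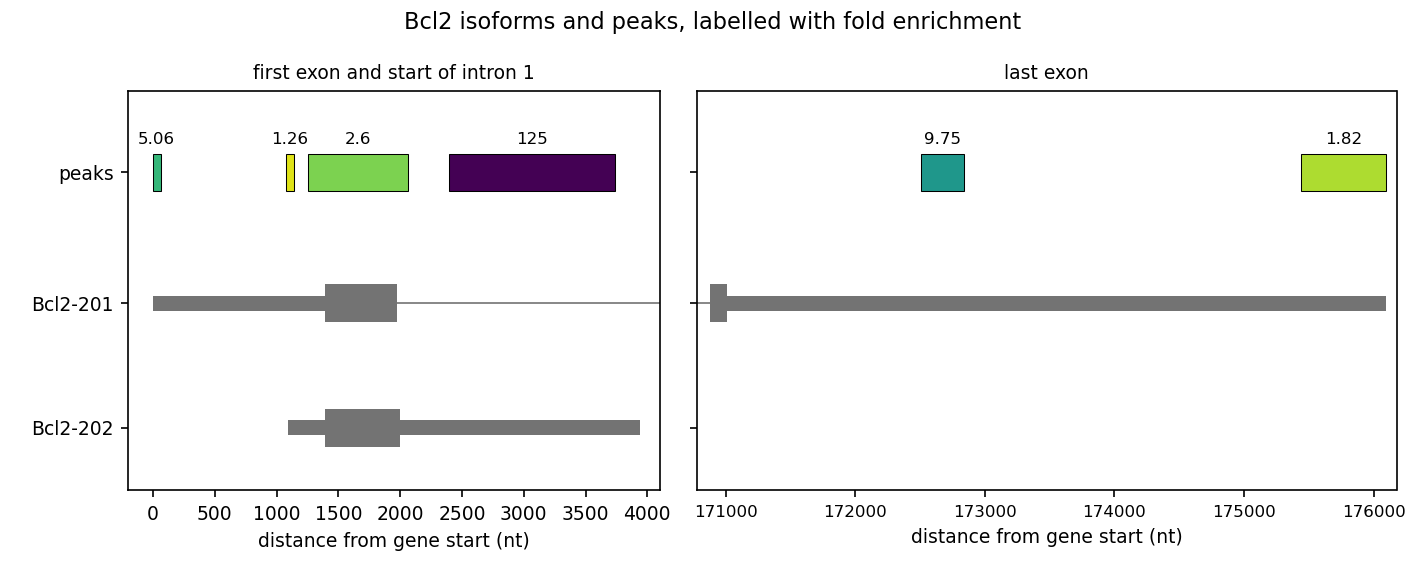
The 6 Bcl2 peaks, labelled with their fold enrichment and coloured by it, above the isoforms Bcl2-201 and Bcl2-202, drawn by distance from the gene start in nt. Thick bars are coding sequence, thin bars UTRs and the line the intron, of which most is left out between the panels. The peak of 125-fold lies over the 3′ UTR of Bcl2-202 and the intron of Bcl2-201.

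The Bcl2 peak of highest fold enrichment was not the richest in GGAC. Peak 4 held 30 DRACH sites (22.3 per kb) but 1 GGAC-type site, the Bcl2-202 window printed above, and its GC content was 36.2%. Peak 3 held 13 DRACH sites (18.2 per kb) with 3 GGAC-type sites at a GC content of 58.3%. After rounding, 100% of windows of 1347 nt on the longest coding transcripts of the list hold a DRACH site and 97.8% hold GGAC, so the presence of either in a peak of that length carries little information. Peak 5, the second of the gene by fold enrichment, had 3 DRACH sites and no GGAC, and peak 1 had no DRACH site, where 69.9% of windows of its length hold one. The DRACH site nearest the centre of peak 5, and likewise that of the strong Bax peak and of the peak over Bak1 described below, were chosen after the values were seen and are shown because these strong peaks have no GGAC-type site.
Bcl2, 3′ UTR, peak 5 (chr1:106541646-106541666, minus strand): tgaaagggGAACCactttttc
Bax, 3′ UTR of Bax-201, peak 3 (chr7:45461708-45461728, minus strand): gcgccaatAAACCtcaggtcc
Bak1, 3′ UTR, peak assigned to Ggnbp1 (chr17:27019819-27019839, minus strand): ctggaaatAAACTgtgcaatg
The capitals again mark the DRACH site. In the Bax and Bak1 windows it overlaps the letters AATAAA, the canonical polyadenylation signal, which ended 21 nt before the end of Bax-201 and 19 nt before the end of Bak1-202. Of 20532 longest coding transcripts with a 3′ UTR of at least 50 nt, 62.1% hold AATAAA in the last 50 nt, so the signal itself is common there.

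Mcl1 encodes MCL-1, the short-lived anti-apoptotic protein on which NK cells depend, and it had 4 peaks, of which 2 were the most significant of the family and none was strong (ENSMUSG00000038612, plus strand, chr3:95658788-95663176). All 4 lay on Mcl1-201, the isoform of 331 amino acids, and together covered 32.6% of its 3418 nt. Peak 2 (chr3:95658998-95659780) had a fold enrichment of 3.6 (log10 p = -59.6), and covered 510 nt of coding sequence at a GC content of 75.1%. Peak 4 (chr3:95662756-95663176), on the last 421 nt of the 3′ UTR, had a fold enrichment of 1.99 (log10 p = -80.5), the most significant of the 20 peaks and beyond 96.6% of the list. Its fold enrichment was above that of 35.7% of all peaks, so the order by significance and the order by fold were far apart. Peak 1 (chr3:95658848-95658938), over the start of the coding sequence, had a fold enrichment of 2.79 (log10 p = -3.12). Peak 3 (chr3:95659960-95660748) had 1.08, lower than nearly the whole list (0.0531% of peaks were lower), with a log10 p of -2.88. That peak spans an intron and holds 91 exonic nt, and these held 3 GGAC sites where 29.8% of windows of this length hold any.

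Bcl2l1 encodes BCL-XL, a close relative of BCL-2, and had a single weak peak (ENSMUSG00000007659, minus strand, chr2:152780668-152831728). The peak (chr2:152830729-152830788) covered 60 nt with a fold enrichment of 3.41 (log10 p = -1.66), and 8.09% of the list was less significant. It touched 1 of 8 coding isoforms, Bcl2l1-203, in its 5′ UTR. Bcl2l1-203 has an incomplete coding sequence in the annotation, and neither isoform with the 233 amino acids of BCL-XL (Bcl2l1-201 and Bcl2l1-202) was touched. The same pair of fold enrichment and p-value was shared by 47 peaks of the list. Pairs of identical values were held by 46.4% of all peaks and by 5 of the 20 (25%).

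Bax, an effector that forms pores in the outer mitochondrial membrane, combined a strong short peak at its 3′ end with a pair of weak peaks at its 5′ end (ENSMUSG00000003873, minus strand, chr7:45461697-45466898). Peak 3 (chr7:45461697-45461816) covered the last 120 nt of Bax-201, the isoform of 192 amino acids, centred 105 nt beyond its stop, with a fold enrichment of 19 (log10 p = -42.8). It touched 2 of 5 coding isoforms, Bax-201 and Bax-205, and 87.4% of all peaks had a lower fold enrichment. The longest coding transcript of the gene, Bax-203, has an incomplete coding sequence and no annotated 3′ UTR, so the peak touched none of its exons. The GGAC-type windows of Bax printed above lie on exons of Bax-203 and not of Bax-201. Peak 2 (chr7:45466029-45466363), at the start of the coding sequence, had a fold enrichment of 1.58 (log10 p = -19.2). Peak 1 (chr7:45465984-45475705) had a fold enrichment of 2.14 (log10 p = -15.8) and contained peak 2. It spanned 9722 nt and overlapped 819 nt of Bax exons against 4490 nt of exons of Dhdh, the neighbouring gene on the same strand, and 293 nt of exons of Gm45808, a coding gene on that strand. Peak 2 overlapped 239 nt of Bax exons and 147 nt of Gm45808 exons, so neither value can be given to Bax alone.

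Bcl2l11 encodes BIM, the BH3-only protein that is held down by cytokine signals, and none of its 3 peaks was strong (ENSMUSG00000027381, plus strand, chr2:128126038-128162547). Peak 1 (chr2:128130650-128130800) had the highest fold enrichment among the BH3-only genes, 3.68, with a log10 p of -5.28. It lay in the 3′ UTR of Bcl2l11-202, an isoform of 91 amino acids, and in intron 2 of Bcl2l11-205, the isoform of 196 amino acids. Peak 3 (chr2:128162217-128162397) lay near the end of the long 3′ UTR of Bcl2l11-205, centred 3978 nt beyond the stop, with a fold enrichment of 1.46 (log10 p = -3.69). Peak 2 (chr2:128131459-128147108) had a fold enrichment of 1.66 (log10 p = -1.87) over a span of 15650 nt, of which 24 nt were exon of Bcl2l11-205. As in Bcl2, the highest fold enrichment of the gene lay on a 3′ UTR that a short isoform uses and the longest isoform splices out. Here too, reads of unspliced Bcl2l11-205 RNA would lie on the same bases, and the list cannot tell them apart.

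Bad encodes a BH3-only protein that binds BCL-2 and BCL-XL, and its 3 peaks were close to each other in fold enrichment (ENSMUSG00000024959, plus strand, chr19:6941861-6951899). Peak 1 (chr19:6950684-6951012) had a fold enrichment of 1.71 (log10 p = -8.79), and it lay in all 8 coding isoforms. Peak 2 (chr19:6951419-6951629) had 1.55 and a log10 p of -3.46, and peak 3 (chr19:6951688-6951898) had 2.14 and a log10 p of -5.55. All 3 fell below the median of the list, and together they covered 48.4% of Bad-208, the longest coding transcript. They held GGAC at 9.43 sites per kb, against 6.32 in the rest of the transcript.

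The 4 genes to which no peak was assigned were not alike. Exons of Bak1 and Bcl2a1b lay under peaks that had been assigned to other genes, while no peak of any gene touched an exon of Bid, the BH3-only protein that caspase-8 cleaves, or of Pmaip1, whose protein NOXA binds MCL-1. Of 11777 protein-coding genes without a peak of their own, 6.59% had exons under a peak of another gene, as did 2 of these 4 (50%). At Bak1 (ENSMUSG00000057789, minus strand, chr17:27019810-27029009), the effector that acts beside Bax, a peak at chr17:27019810-27019988 had a fold enrichment of 5.12 (log10 p = -35.3), more significant than 91.9% of the list. It covered the last 179 nt of Bak1-202, all in the 3′ UTR, and ended exactly at the annotated end of the gene. The authors had assigned it to Ggnbp1, a gene on the opposite strand whose span includes this stretch, but it touched 0 nt of Ggnbp1 exons. By exons rather than by the assigned identifier, 3 listed genes would have a strong peak, Bak1 included, and 8 would have a peak. Whether strand was used is not given in the sources used here, and without it reads of Bak1 and Ggnbp1 cannot be told apart on this stretch.

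At Bcl2a1b (ENSMUSG00000089929, plus strand, chr9:89199209-89207827), the case was less clear. A peak assigned to Gm29094, an annotated gene that overlaps Bcl2a1b and runs on into Mthfs, spanned chr9:89199238-89207827 and covered 788 of the 817 nt of the transcript, with a fold enrichment of 2.13 (log10 p = -30.8). That peak began before the annotated start of Gm29094 (chr9:89199379) and ended exactly at the annotated end of Bcl2a1b. It also touched 401 nt of Gm29094 exons. Another peak, assigned to Mthfs (chr9:89199379-89215471), covered 647 nt with a fold enrichment of 1.66 (log10 p = -19.9). Its span was the annotated span of Gm29094. Bcl2a1b belongs to a set of near-identical A1 genes, so any assignment of reads among them is uncertain. The transcript shared 98.2% of aligned bases with Bcl2a1a, 99.1% with Bcl2a1d and 95.3% with Bcl2a1c. Bcl2a1a had 2 peaks of its own, with fold enrichments of 1.7 and 1.54, and Bcl2a1c and Bcl2a1d had none.

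**Figure D3:**
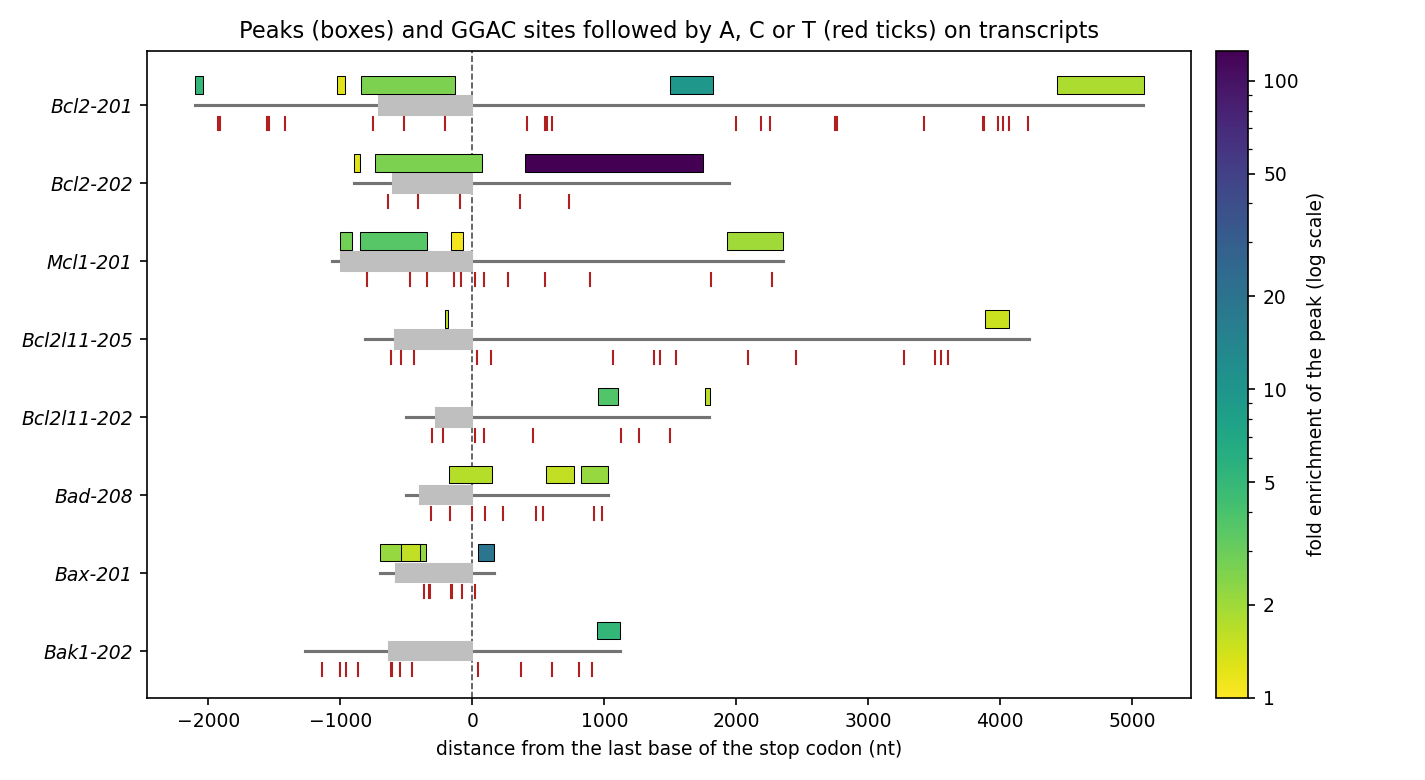
Peaks (boxes, coloured by fold enrichment on a log scale) and GGAC sites followed by A, C or T (red ticks) on 8 transcripts of the listed genes, by distance from the last base of the stop codon in nt. Grey bars are coding sequence and lines are UTRs. The strongest boxes, those of Bcl2-202 (125), Bax-201 (19), Bcl2-201 (9.75) and Bak1-202 (5.12, from the peak assigned to Ggnbp1), lie past the stop codon.

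The position of the peaks was compared with that of the whole list on the longest coding transcript of each gene. Of the 20 peaks, 16 touched an exon of it and 4 did not (20%), against 13.7% of 18216 peaks of protein-coding genes. The 4 were the peaks of highest fold enrichment of Bcl2, Bcl2l1, Bcl2l11 and Bax, so in 4 of 6 genes (66.7%) the highest peak was off the longest coding transcript, against 14.2% of all genes. On the transcript with the longest coding sequence instead, Bax-201 replaced Bax-203 and the share was 3 of 6 genes (50%) against 16.4%. Judged by the middle of the exonic stretch, 3 of the 16 peaks lay in the 5′ UTR (18.8%, against 9.95% of 15715 peaks in the list), 7 in the coding sequence (43.8%, against 33.6%) and 6 in the 3′ UTR (37.5%, against 56.5%). The 95% Wilson interval of the 3′ UTR share, 18.5% to 61.4%, took in the share of the list. It covers counting error only, for peaks that share transcripts. Centres within 200 nt of the stop codon numbered 3 of 16 (18.8%, against 22.3%), namely the third peak of Mcl1, the second of Bcl2l11 and the first of Bad. On Bad-201, which has the longest coding sequence of Bad, peak 2 was instead centred on the stop codon and peak 1 lay 199 nt before it. The last base of the longest coding transcript was reached by 3 of the 16 peaks, in Bcl2-201, Mcl1-201 and Bad-208 (18.8%, against 22.3% in the list). Bax peak 3 reached the last base of Bax-201.

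In sum, DRACH was no denser in the 16 peaks placed on the longest coding transcripts than outside them. The 4 peaks not placed there held 22.3 (Bcl2), 16.7 (Bcl2l1), 6.62 (Bcl2l11) and 8.33 (Bax) sites per kb and are not part of this comparison. The 16 placed peaks held 16 DRACH sites per kb, against 20.2 in all placed peaks of the list. On the 5 transcripts concerned, bases inside peaks held 15.5 per kb and the remaining bases 19.4 per kb. The density was higher inside in 1 of 5 genes, Bcl2l11 (19.5 against 15.9), where it rested on 4 sites in 205 nt of peak. The shorter motif GGAC went the other way in sum, with 6.25 sites per kb inside peaks and 4.03 outside. That excess came from Mcl1 (8.09 inside, 2.6 outside) and Bad (9.43 and 6.32), while Bcl2 (3.29 and 4.29), Bax (9.31 and 14.4) and Bcl2l11 (0 and 3.31) had less inside. The GC content of the placed peaks was 55.6%, against 48.1% over the list. At least 1 GGAC was found in 9 of the 16 peaks (56.2%, against 54.5%).

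**Figure D4:**
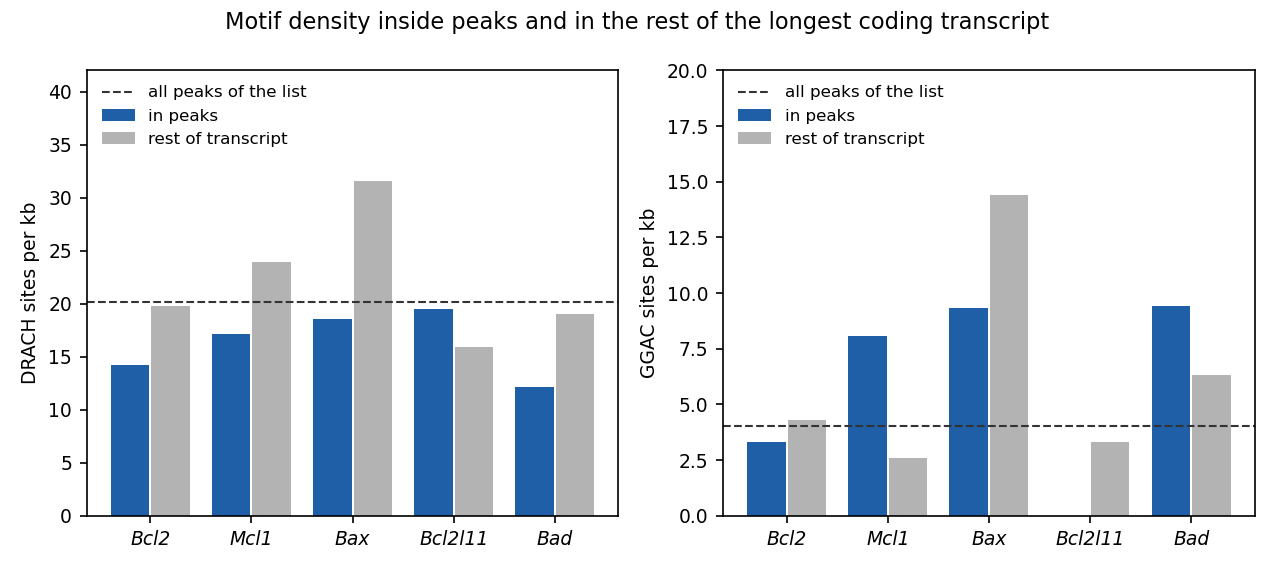
DRACH sites per kb (left) and GGAC sites per kb (right) inside peaks and in the rest of the longest coding transcript, for the 5 genes with a peak on it. The dashed line is the density over all placed peaks of the list (20.2 for DRACH, 4.03 for GGAC), and the bar for peaks is above the bar for the rest in Bcl2l11 for DRACH and in Mcl1 and Bad for GGAC.

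Fold enrichment and significance ordered the family differently. By fold enrichment the order was Bcl2 peak 4, Bax peak 3, Bcl2 peak 5 and Bcl2 peak 1, whereas by p-value it was Mcl1 peak 4, Mcl1 peak 2, Bcl2 peak 5 and Bax peak 3. Bcl2 peak 5 and Bax peak 3 were high in both orders. The list gives neither the reads under a peak nor the abundance of the RNA.

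**Figure D5:**
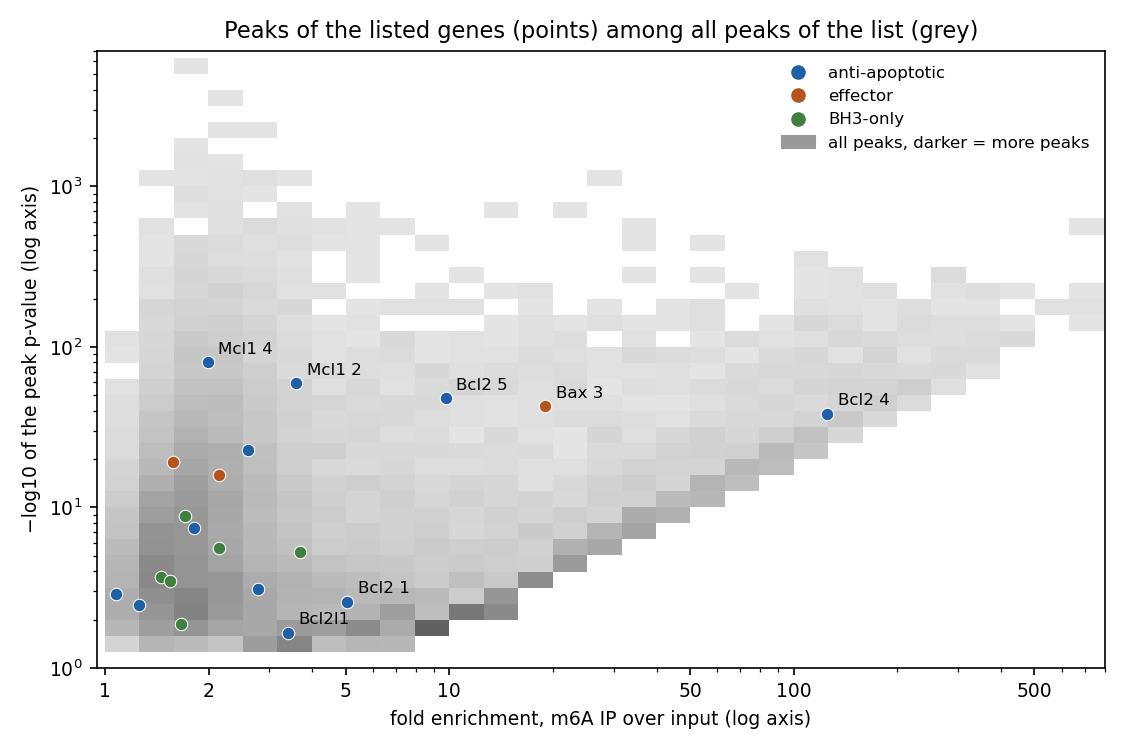
Fold enrichment (log axis) against −log10 of the peak p-value (log axis) for the 20 peaks of the listed genes, coloured by role, over all 20727 peaks (grey, darker for more peaks). Mcl1 peak 4 is highest (log10 p = -80.5) at 1.99-fold, and Bcl2 peak 4 lies furthest right (125-fold) with a log10 p of -38.4.

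The remaining family members and the genes around them were read from lists. Of 14 other BCL-2 family genes, 8 had a peak (57.1%, against 46.3% of protein-coding genes) and 5 of these a strong one (62.5%, against 43.4%), with a median fold enrichment of 3.45 over 13 peaks, against 2.66 over the list. The highest were Bcl2l10 (51.2), Bok, an effector relative (49.3), and Bcl2l15 and Bcl2l2, the gene of BCL-W (9.48 each). The last pair had a log10 p of -1.69, values shared by 845 peaks of the list, the commonest pair there. Bcl2a1c, Bcl2a1d, Bcl2l14 and the BH3-only genes Bik, Bmf and Hrk had no peak. Of 14 genes that act downstream of the mitochondria, 11 had a peak (78.6%, against 46.3%) and 4 of these a strong one (36.4%, against 43.4%), with a median of 1.82. They were led by the caspase inhibitor Xiap (20.9), the apoptosome gene Apaf1 (17.1) and the inhibitor of apoptosis Birc2 (11.4). The log10 p of these peaks was -5.29, -3.33 and -2.37, and that of Xiap touched no exon of its longest coding transcript. Htra2, Aifm1 and Casp6 had no peak. Of 13 genes whose products regulate family members, 11 had a peak (84.6%, against 46.3%) and 3 of these a strong one (27.3%, against 43.4%), with a median of 2. They were led by the mitochondrial channel gene Vdac3 (56.9), the MCL-1 ubiquitin ligase gene Huwe1 (11.4) and Foxo3 (6.07), a transcription factor of BH3-only genes. The log10 p of these peaks was -12.6, -2.09 and -3.95. Bag3 and Bnip3 had no peak.

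The cell type on the labels was compared with marker genes. All 11 NK cell markers, Ncr1 and Klrb1c included, had a peak (100%, against 46.3% of protein-coding genes). None of these was strong (0%, against 43.4% of protein-coding genes with a peak). Their fold enrichments reached 3.28, and the log10 p for Gzma was -624. All 5 myeloid markers also had a peak (100%), none strong, up to 1.9-fold, with a log10 p of -322 for Csf1r and -306 for S100a8. Of 6 T cell markers, 3 had a peak (50%, against 46.3%), all 3 strong, while Cd4, Cd8a and Cd8b1 had no peak. They were led by Cd3g (31.6), whose highest peak touched no exon of its longest coding transcript. The strong Cd3d peak (5.69) had a log10 p of -1.63. Of B cell genes, Pax5 had a strong peak (75.9) and Ms4a1 had none. Such a peak shows that RNA of the gene was in the IP but not how much, and the part of other cells in the peaks of Bcl2, which lymphocytes of several kinds express, was not tested.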

How the data were processed

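Splenic NK cell RNA was measured by MeRIP-seq in 4 libraries (2 m6A IP, 2 input). Per the study's methods and the submitters' notes, the authors trimmed the reads, mapped them with HISAT2 (version 1.0) to the mouse genome, called peaks with exomePeak and annotated them with ChIPseeker (version 1.0). The fold enrichment deposited by the authors is a ratio of IP over input. The significance deposited by the authors is a score, the log10 of an unadjusted peak p-value that did not exceed 0.05. How replicates, strand and reads with several matches were treated is not given in the sources used here. The list has 0 columns with a value per sample, so depth is unknown, and 0 columns of per-sample values were left unused.

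From 20751 rows, 24 repeats were dropped. Peaks were taken by Ensembl identifier and placed on GENCODE M21 (GRCm38) transcripts by the centre of their exonic part, on the longest coding transcript or, where a peak touched none of its exons, on the coding transcript with most overlap. Lengths of peaks with introns are genomic spans. DRACH and GGAC were counted on the sense strand only and overlap each other, since GGAC followed by A, C or T is a DRACH site. Placement was tested on simulated data with 2000 transcripts and recovered 100%. Python 3.11.15, scipy 1.17.1 and matplotlib 3.10.9 were used. No test between groups was possible, and all values are descriptions.

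All 10 genes are named with every peak, and of each other list at most the 3 genes of highest fold enrichment, with any tie, and those without a peak. Windows were limited to GGAC-type sites, at most 2 for a peak, nearest its centre first. Genes, lists and thresholds were chosen with earlier results of these data known. Names outside this rule were chosen after their values were seen. Alternatives changed thresholds, gene assignment, transcript model and motif. The count over the list of B cell markers is not reported here.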

Additional observations from a re-analysis of the deposited data

How the results depend on the processing

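The 6 counts and values of the family (genes with a peak, genes with a strong peak, peaks, median fold enrichment, 3′ UTR share and DRACH density) were recomputed under 34 alternatives. In 25 the result stayed within 1.5 times, or for the 3′ UTR share within its Wilson interval, and in 9 it moved. That interval was wide (18.5% to 61.4%), and the share rested on 7 peaks at a minimum of 2-fold and on 2 at 5-fold. Keeping only peaks on exons of a coding isoform removed none of the 20, so it left each result unchanged. The count of 25 is therefore a weak measure of stability. A minimum fold enrichment of 5 left 2 genes and 4 peaks, with a median of 14.4. The DRACH density at that minimum, 7.65 sites per kb, came only from Bcl2 peaks 1 and 5. Bcl2 peak 4 (22.3 per kb) and Bax peak 3 (8.33 per kb) touch no exon of the longest coding transcript and were left out of it. A minimum of 2 left 11 peaks with a median of 3.6. Counting peaks from 3-fold as strong gave 5 genes with a strong peak. The strongest peak of each gene had a median of 3.64. GGAC in place of DRACH gave 6.15 sites per kb. A minimum or a strongest peak sets the counts and medians by its own construction, and a shorter motif is another measure. The DRACH density at a minimum of 5 covers 2 of the 4 strong peaks, and the cause of its value was not tested. Counting peaks of other genes over exons of a listed gene, an alternative chosen after seeing the data, gave 8 genes with a peak, 3 with a strong peak and 23 peaks. Placing peaks on the transcript that holds them, also chosen after seeing the data, gave a 3′ UTR share of 45% and 16.9 DRACH sites per kb. No paired analysis was possible because single libraries have no values in the list (their labels carry the numbers 1 and 2 in each group), and for the same reason leaving out each replicate was not run. Depth is unknown, so a gene without a peak may have too few reads for a peak to be found, and absence of m6A cannot be read from it.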
